A study of Mus musculus with 6 samples.

Results

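Neuropilin 1 (Nrp1), 5 semaphorins (Sema4a, Sema4b, Sema4c, Sema4d and Sema7a) and 3 plexins (Plxnb2, Plxnc1 and Plxnd1) are described here in mouse regulatory T cells (Tregs). They are 9 of the 55840 genes in the deposited table and 9 of its 31 semaphorins, plexins and neuropilins. The rows were taken by gene name, and these names were selected on their counts in WT and Exon2KO libraries, which were already known. Every value that compares the genotypes for these 9 genes is therefore a description, given without a p-value. Where calls at a threshold are named for them, these too are description only.

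RNA was sequenced from Tregs of spleen and lymph nodes in 3 libraries of wild-type cells (WT) and 3 of cells whose genotype is given as Exon2KO, with the title of the series adding a delta 2 mark to Foxp3. No treatment is named for either genotype. The strain, the age and sex of the mice, the way the cells were sorted, and whether animals were pooled are not given in the sources used here. The titles call the libraries biological replicates without saying that they came from separate animals, so p-values measure the spread between these samples. A library is named here by its genotype and the number in its column name, as WT 2, WT 6 and WT 20 and Exon2KO 2, Exon2KO 6 and Exon2KO 20.

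Semaphorins are secreted or membrane-bound proteins that act on neighbouring cells, and plexins are their main receptors. A plexin carries a GTPase-activating domain inside the cell and, through small GTPases, changes adhesion and the actin skeleton. Neuropilins have almost no signalling part of their own and work as co-receptors for semaphorins and for VEGF. In mice, Nrp1 is a surface marker of Tregs that arise in the thymus, and Sema4a on other immune cells has been described as a ligand of Nrp1 on Tregs that supports their stability and survival.

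Total counts ran from 17998216 to 21003496 per library, and all 9 genes passed the filter on low counts. Levels are counts scaled to a library of 1000000 (CPM), on TMM-scaled library sizes, and 3 counts, the smallest level taken as detectable, came to between 0.141 and 0.169 CPM. This floor covers counting error only. On the first principal component (33.2% of the variance) the libraries numbered 20 stood apart in both genotypes, so differences within each number are given for the 9 genes. The Treg identity was checked on 8 T cell and Treg markers, all detected, with a summed level of 3834 to 4233 CPM in WT and 3540 to 3915 CPM in Exon2KO libraries. Foxp3, the edited gene, was at 602 to 783 CPM in WT and 684 to 925 CPM in Exon2KO, but a count over the whole gene does not show whether exon 2 is there.

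The sequences just before the annotated starts of Sema4a, Nrp1 and Plxnd1 are shown because these are the 3 of the 9 genes called between genotypes (an adjusted p under 0.05 in edgeR without the replicate block). Each is the 250 bases before the RefSeq transcription start on GRCm38.p6, read 5′ to 3′ on the strand of the gene, with CG dinucleotides in capitals. None of their bases lies in an exon of GENCODE M21. The Nrp1 window lies before the RefSeq start but inside the gene interval of the table and of GENCODE, which begins further upstream. The windows are chr3:88461183-88461432 on the minus strand for Sema4a, chr8:128358823-128359072 on the plus strand for Nrp1 and chr6:115995006-115995255 on the minus strand for Plxnd1.
Sema4a: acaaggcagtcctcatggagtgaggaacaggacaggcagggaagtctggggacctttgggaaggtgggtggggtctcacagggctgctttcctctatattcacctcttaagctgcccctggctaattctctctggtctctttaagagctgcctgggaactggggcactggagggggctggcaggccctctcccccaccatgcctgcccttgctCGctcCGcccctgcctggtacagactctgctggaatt
Nrp1: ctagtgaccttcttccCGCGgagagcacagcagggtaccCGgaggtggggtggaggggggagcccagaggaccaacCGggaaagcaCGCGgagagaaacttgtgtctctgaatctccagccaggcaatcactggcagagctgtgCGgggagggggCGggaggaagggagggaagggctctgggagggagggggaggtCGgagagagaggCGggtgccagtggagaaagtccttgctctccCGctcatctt
Plxnd1: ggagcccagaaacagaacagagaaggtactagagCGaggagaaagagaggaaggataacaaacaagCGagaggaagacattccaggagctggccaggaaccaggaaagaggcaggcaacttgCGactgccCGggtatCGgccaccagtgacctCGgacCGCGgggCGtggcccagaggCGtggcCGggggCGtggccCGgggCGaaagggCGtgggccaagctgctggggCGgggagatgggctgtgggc

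The Sema4a window held 2 CG dinucleotides, that of Nrp1 11 and that of Plxnd1 16. Over all 32851 RefSeq windows of this length the median was 6, and 18.8%, 64.4% and 74.6% of windows held fewer than those of Sema4a, Nrp1 and Plxnd1. Sema4a has 4 RefSeq starts, and its other 3 windows held 3, 13 and 6 CG dinucleotides. Gene-level counts do not tell which start was used. A pair of letter strings related to forkhead factors, the class Foxp3 belongs to, were searched on both strands. TGTTTAC occurred in 3.17% and TTTGTTT in 8.74% of all windows, and neither occurred in the 17 windows of the 9 genes, which says only that these letters are not in these windows.

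Among the receptors, Nrp1, Plxnd1, Plxnb2 and Plxnc1 were all at lower levels in Exon2KO than in WT Tregs, with no overlap between the genotypes. Plxnd1 was 2.00-fold, Plxnb2 1.80-fold, Nrp1 1.61-fold and Plxnc1 1.21-fold lower. Among the ligands, Sema4a alone separated the genotypes and was 2.20-fold higher in Exon2KO. Sema4b, Sema4c, Sema4d and Sema7a had overlapping ranges.

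**Figure D1:**
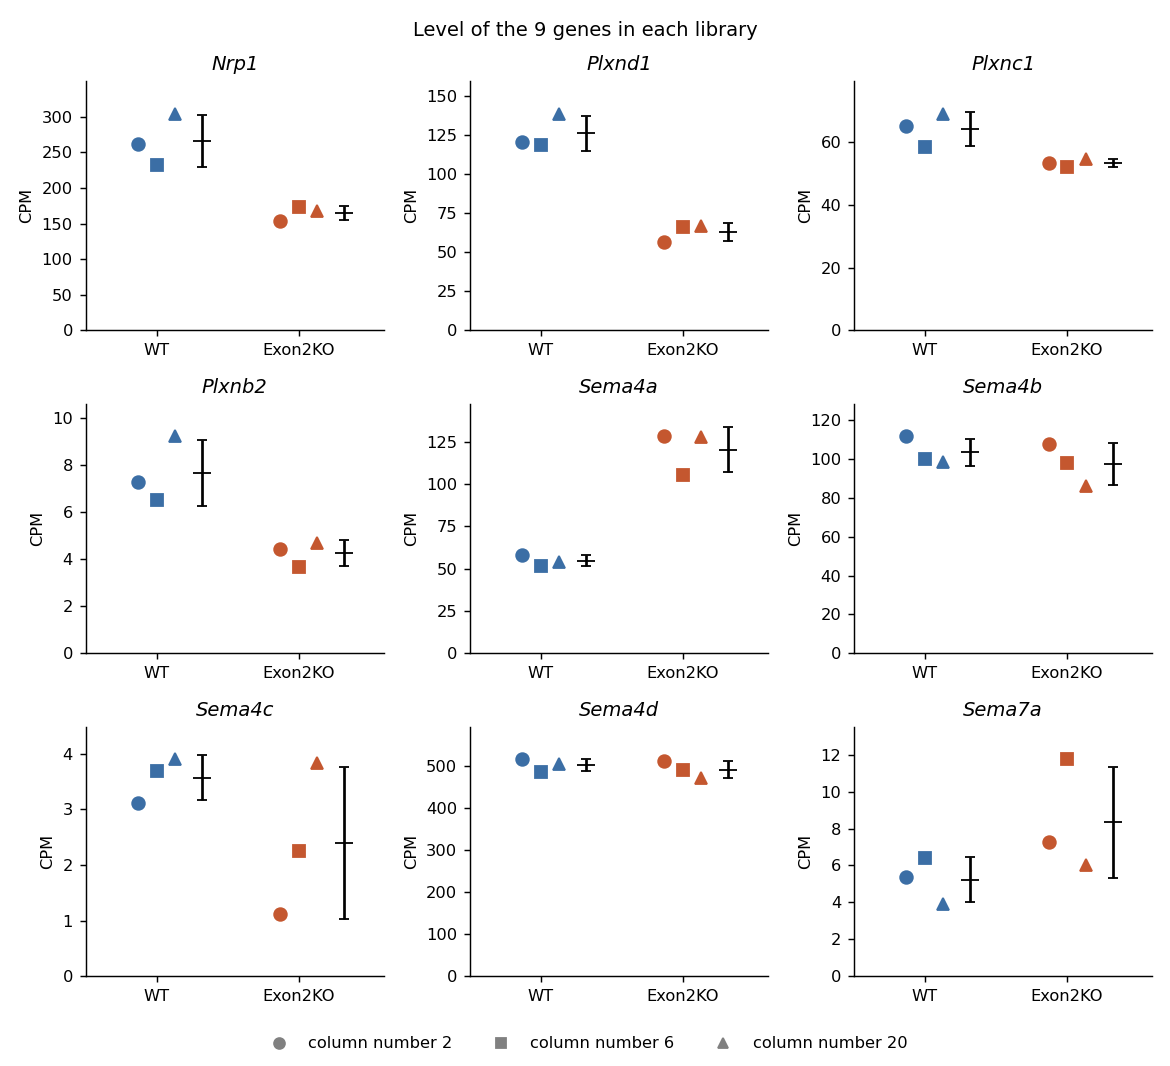
Level of each of the 9 genes in CPM on a linear axis that starts at 0, with 1 symbol per library (circle, square and triangle for column numbers 2, 6 and 20; blue for WT, orange for Exon2KO), and the mean and SD of each genotype as bars. The WT and Exon2KO symbols do not overlap for Nrp1, Plxnd1, Plxnc1, Plxnb2 and Sema4a, and they overlap for the other 4 genes. Of all tested genes, 17.7% did not overlap.

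Nrp1 (ENSMUSG00000025810, chr8:128358604-128503363, plus strand, GRCm38) was the most abundant of the 4 receptors. Its level was 261, 232 and 304 CPM in WT 2, WT 6 and WT 20, and 153, 174 and 167 CPM in Exon2KO 2, Exon2KO 6 and Exon2KO 20. The lowest WT library stood above the highest Exon2KO library, and WT 20 was the highest of the 6. The means were 266 ± 36.4 CPM in WT and 165 ± 10.4 CPM in Exon2KO (SD, n = 3 each). The log2 fold change was -0.69 ± 0.10 (SE), and within the numbers 2, 6 and 20 it was -0.77, -0.42 and -0.86.

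Plxnd1 (ENSMUSG00000030123, chr6:115954811-115995005, minus strand) encodes plexin D1, a receptor of Sema3e that has also been described to bind Sema4a. WT 2, WT 6 and WT 20 held 120, 119 and 139 CPM of it, and the Exon2KO libraries in the same order held 56.5, 65.8 and 66.6 CPM. Each Exon2KO value was well under the lowest WT value. The means were 126 ± 11.0 and 62.9 ± 5.63 CPM (SD, n = 3 each). On the log2 scale this was a fold change of -1.00 ± 0.10 (SE), and it was -1.09, -0.85 and -1.06 within the numbers 2, 6 and 20.

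Plxnb2 (ENSMUSG00000036606, chr15:89155549-89180788, minus strand), a plexin that binds Sema4c, was a gene of low level. In WT 2, WT 6 and WT 20 it reached 7.25, 6.50 and 9.20 CPM, from 135, 118 and 196 counts, and in Exon2KO 2, 6 and 20 it reached 4.45, 3.64 and 4.67 CPM, from 80, 71 and 83 counts. The genotypes were again apart, though on few counts. Its log2 fold change was -0.85 ± 0.22 (SE), and all 3 differences within a number were negative, from -0.96 to -0.69.

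Plxnc1 (ENSMUSG00000074785, chr10:94790866-94944835, minus strand), the plexin that binds Sema7a, differed least among the 4 receptors. Its level was 65.1, 58.2 and 68.9 CPM in the WT libraries and 53.2, 51.8 and 54.4 CPM in the Exon2KO libraries numbered alike. The genotypes did not overlap. The log2 fold change was -0.27 ± 0.09 (SE), with -0.29, -0.17 and -0.34 within the numbers.

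Sema4a (ENSMUSG00000028064, chr3:88435959-88461182, minus strand), a membrane-bound ligand of Nrp1 and of plexins, had the largest fold change of the 9 genes. WT 2, WT 6 and WT 20 had 58.2, 51.7 and 54.0 CPM, and Exon2KO 2, Exon2KO 6 and Exon2KO 20 had 128, 105 and 128 CPM. The highest WT library was far below the lowest Exon2KO library. Means of 54.6 ± 3.32 and 120.3 ± 13.3 CPM (SD, n = 3 each) were obtained, and the log2 fold change was 1.14 ± 0.10 (SE). The value was 1.14, 1.02 and 1.24 within the numbers 2, 6 and 20.

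Sema7a (ENSMUSG00000038264, chr9:57940112-57962865, plus strand) encodes a GPI-anchored semaphorin that binds Plxnc1 and beta 1 integrins. It was at 5.37, 6.39 and 3.94 CPM in WT 2, WT 6 and WT 20 and at 7.28, 11.7 and 6.02 CPM in Exon2KO 2, 6 and 20. WT 6 lay above Exon2KO 20, so the genotypes overlapped, while each Exon2KO library was above the WT library of its own number, by 0.43, 0.87 and 0.60 on the log2 scale. The log2 fold change over all libraries was 0.68 ± 0.29 (SE), and 0.34 without Exon2KO 6.

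Sema4d (ENSMUSG00000021451, chr13:51685529-51793747, minus strand), also known as CD100, is a ligand of Plxnb1 and, on lymphocytes, of Cd72, and it had the highest level of the 9 genes. Its CPM were 515, 486 and 505 in the WT libraries numbered 2, 6 and 20, and 512, 490 and 471 in the Exon2KO libraries. The ranges were interleaved, and the log2 fold change was -0.03 ± 0.07 (SE), with -0.01, 0.01 and -0.10 within the numbers. Sema4b (ENSMUSG00000030539, chr7:80186841-80226527, plus strand), another class 4 transmembrane semaphorin, had 111, 100.1 and 98.4 CPM in WT and 108, 97.8 and 86.3 CPM in Exon2KO, also interleaved. Its log2 fold change was -0.09 ± 0.10 (SE). Within the numbers 2, 6 and 20 it was -0.05, -0.03 and -0.19, with nearly equal levels in numbers 2 and 6.

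Sema4c (ENSMUSG00000026121, chr1:36548639-36558349, minus strand), the ligand of Plxnb2 named above, was the rarest of the 9. It was at 3.11, 3.69 and 3.89 CPM in WT 2, WT 6 and WT 20 and at 1.11, 2.26 and 3.83 CPM in Exon2KO 2, 6 and 20, the lowest library holding 20 counts. Exon2KO 2 stood low and Exon2KO 20 within the WT range, so the log2 fold change of -0.57 ± 0.40 (SE) rested on an uneven group. Within the numbers 2, 6 and 20 this log2 fold change was -1.40, -0.68 and -0.02, with nearly equal levels in number 20. Over all numbers it was -1.08 without Exon2KO 20 and -0.24 without Exon2KO 2.

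**Figure D2:**
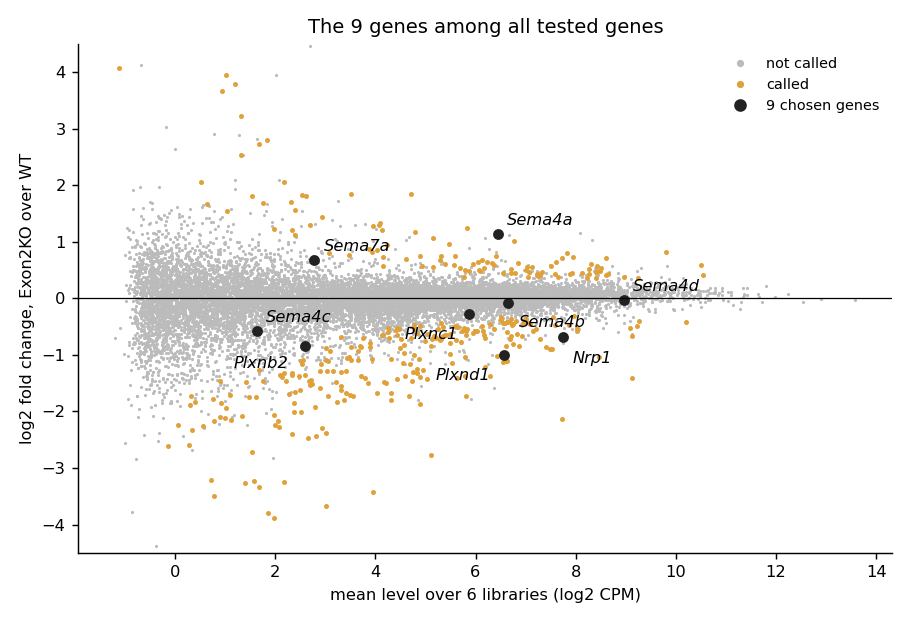
Log2 fold change of Exon2KO over WT against the mean level in log2 CPM for the 14919 tested genes, with genes called by edgeR in orange, other genes in grey and the 9 genes in black; 4 genes lie outside the axis limits of 4.5. Sema4a, Nrp1 and Plxnd1 are called, and the other 6 lie within the cloud of genes that are not.

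At an adjusted p under 0.05 in edgeR's quasi-likelihood test, 3 of the 9 genes were called against 2.33% of all 14919 tested genes. Sema4a was the 1 called higher in Exon2KO, where the share over all genes was 0.757%, and Nrp1 and Plxnd1 were the 2 called lower, where it was 1.58%. The genotypes did not overlap for 5 of the 9, against 17.7% of all tested genes. With the column number as a replicate block, 6 of the 9 were called (Plxnb2, Plxnc1 and Sema7a added), against 9.72% of all genes. The median log2 fold change of the 9 was -0.27, and that of all tested genes 0.01. Because the names were selected on this contrast, nothing is read from these counts. The authors' deposited table gives log2 fold changes of -0.69 for Nrp1, -1.00 for Plxnd1, -0.85 for Plxnb2 and 1.14 for Sema4a. Leaving out WT 2 or Exon2KO 2 ended the call of Nrp1, with log2 fold changes of -0.71 and -0.65.

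The counts assigned to genes that overlap the 9 were low, though such counts do not measure reads that fall on both genes. Of the 8 overlapping genes in the table, Gm45206 had the most counts, 73 over all libraries beside 11365 of Sema4b. Gm24186 and Gm48718 had 10 and 2 counts beside 6671 of Plxnc1. On the opposite strand, D430040D24Rik (Sema4c) and Gm23566 (Sema4d) had 2 counts each. Mir1903, Mir7118 and Mir7011, on the same strand within Nrp1, Plxnb2 and Sema4a, had 0.

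Levels between genes were compared per length, as CPM divided by the gene length of the table in kb. Over the 6 libraries Sema4d was first with a mean of 64.6 CPM per kb, followed by Nrp1 (22.0), Sema4b (17.8), Sema4a (16.2), Plxnd1 (12.9), Plxnc1 (7.02), Sema7a (2.06), Plxnb2 (0.771) and Sema4c (0.649). The 6 values overlapped between 5 of the 8 neighbouring pairs in this order, which were Nrp1 with Sema4b, Sema4b with Sema4a, Sema4a with Plxnd1, Plxnd1 with Plxnc1 and Plxnb2 with Sema4c. Since this pools the genotypes, the order was also taken within each, where 2 neighbouring pairs overlapped: Sema4b with Plxnd1 and Plxnb2 with Sema4c in WT, and Sema4b with Nrp1 and Plxnb2 with Sema4c in Exon2KO. Sema4a held rank 5 within WT, at 9.56 to 10.8 CPM per kb, and rank 2 within Exon2KO, at 19.4 to 23.7 CPM per kb. Nrp1 held rank 2 within WT, at 23.7 to 31.1 CPM per kb, and rank 4 within Exon2KO, at 15.7 to 17.7 CPM per kb, a range that overlapped that of Sema4b. Plxnd1 went from rank 4 in WT, at 16.3 to 19.0 CPM per kb, to rank 5 in Exon2KO, at 7.73 to 9.12 CPM per kb.

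The ratio of Sema4a to Nrp1 in CPM per kb was 0.404, 0.403 and 0.321 in WT 2, WT 6 and WT 20, and 1.51, 1.09 and 1.38 in Exon2KO 2, 6 and 20. Per length, Nrp1 was thus the higher of this receptor and ligand pair in every WT library, and Sema4a in every Exon2KO library. That order in Exon2KO turns on the gene lengths of the table (9785 bases for Nrp1, 5406 for Sema4a), since in CPM Nrp1 was the higher in all 6 libraries. The summed levels of the 11 plexins and neuropilins were 60.4 ± 6.59 CPM per kb in WT and 39.0 ± 2.36 CPM per kb in Exon2KO (SD, n = 3 each). Nrp1 made up 44.9% of that sum in WT and 43.2% in Exon2KO, Plxnd1 28.6% and 22.1%, and Plxnc1 12.7% and 16.4%. The 20 semaphorins summed to 103 ± 3.49 and 113 ± 4.93 CPM per kb, of which Sema4a made up 9.82% in WT and 19.7% in Exon2KO, and Sema4d 63.6% and 56.7%.

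**Figure D3:**
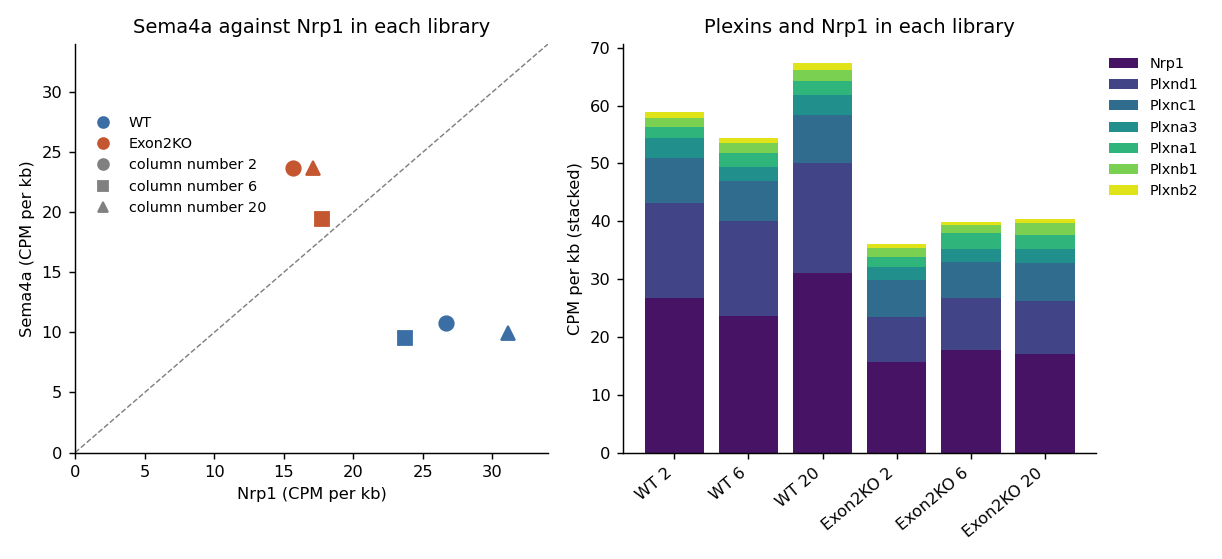
Left, Sema4a against Nrp1 in CPM per kb for each library (blue WT, orange Exon2KO; circle, square and triangle for column numbers 2, 6 and 20), with a dashed line at equal levels; right, stacked CPM per kb in each library of Nrp1 and the 6 plexins of highest level. The WT libraries lie below the line, at ratios of 0.321 to 0.404, and the Exon2KO libraries above it, at 1.09 to 1.51.

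Of the 22 semaphorins, plexins and neuropilins that are not among the 9, 9 had enough counts to be tested, and none changed with genotype by edgeR at an adjusted p under 0.05. DESeq2 and limma-voom called 0 as well, and 1 had an unadjusted p under 0.05. That gene was Plxna3, a receptor of class 3 semaphorins that works with neuropilins, at 27.5, 19.7 and 28.3 CPM in the WT and 17.7, 17.0 and 19.4 CPM in the Exon2KO libraries numbered 2, 6 and 20. The genotypes of Plxna3 did not overlap, and its log2 fold change was -0.48 ± 0.15 (SE), with an adjusted p of 0.188 in edgeR. With the replicate block the adjusted p of Plxna3 was 0.0109, within a range of 0.0109 to 0.482 over 14 alternatives, of which this was the 1 that called it.

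The other 8 tested relatives had overlapping ranges. Their log2 fold changes (± SE) were 0.14 ± 0.17 for Plxna1, -0.06 ± 0.14 for Plxnb1 and 0.49 ± 0.40 for Nrp2 among the receptors. For the semaphorins they were -0.07 ± 0.10 for Sema4f, 0.06 ± 0.21 for Sema6c, 0.12 ± 0.39 for Sema4g, -0.53 ± 0.36 for Sema6d and -0.82 ± 0.48 for Sema3d. The widest errors belong to genes whose mean was under 3 CPM, and a p that misses the threshold does not show equal levels. The remaining 13 had at most 23 counts in a library, the highest being Sema6b in WT 20. Sema3c, Sema3e, the best known ligand of Plxnd1, and Sema6a had 0 counts in all 6 libraries.

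**Figure D4:**
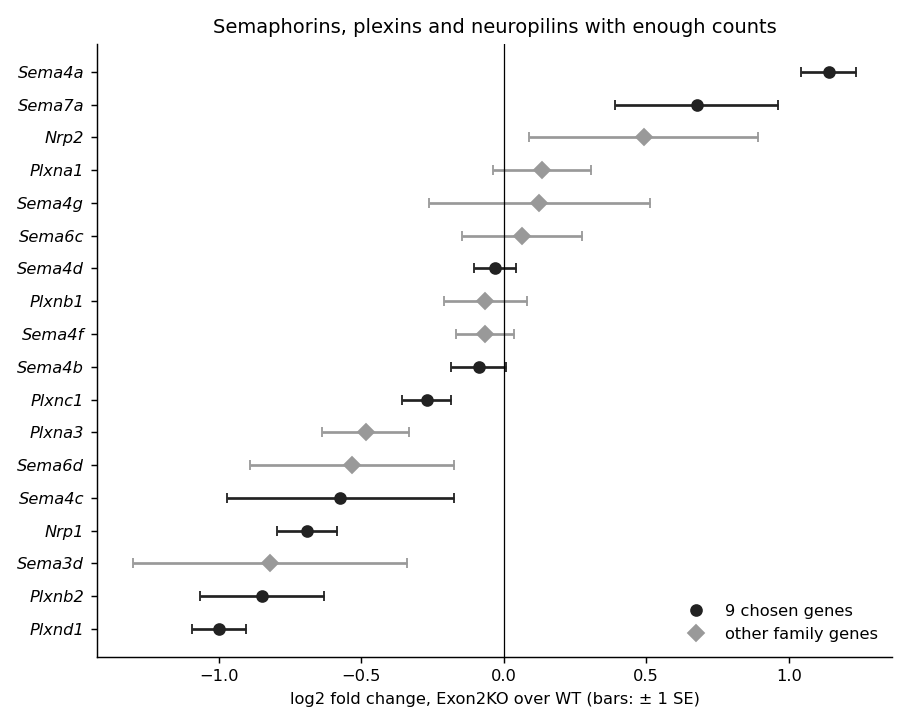
Log2 fold change of Exon2KO over WT with bars of 1 SE for the 18 semaphorins, plexins and neuropilins that were tested (black circles for the 9 genes described here, grey diamonds for the other 9). Sema4a is the highest at 1.14 and Plxnd1 the lowest at -1.00, and bars are widest for genes of low level such as Sema3d and Sema4c.

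Genes that act around these receptors were taken from 5 lists of 55 genes, 41 of them tested. Of the 41, 1 fell and 0 rose in Exon2KO (2.44%, beside 2.33% of all tested genes). Their log2 fold changes were above 0 for 20 genes and below 0 for 21, with a median of -0.0035 beside 0.0084 over all tested genes. The gene that fell was Arhgef12, which encodes the guanine nucleotide exchange factor LARG that binds class B plexins. It was at 82.0, 69.8 and 72.8 CPM in WT 2, WT 6 and WT 20 and at 53.5, 52.2 and 41.3 CPM in Exon2KO 2, 6 and 20, with no overlap. Its log2 fold change was -0.61 ± 0.11 (SE), with an adjusted p of 0.0245 in edgeR. The call of Arhgef12 was lost without WT 2, WT 6, WT 20 or Exon2KO 2, and over 14 alternatives the adjusted p ran from 5.07e-05 to 0.115, with log2 fold changes of -0.68 to -0.51.

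By list, 1 of 25 tested adaptors and effectors of neuropilins and plexins was called, with a median log2 fold change of -0.01. The motor protein Myo6, which the Nrp1-binding adaptor Gipc1 couples to endocytosis, was at 22.4, 25.4 and 22.5 CPM in WT and 30.1, 34.8 and 42.8 CPM in Exon2KO. Its log2 fold change was 0.62 ± 0.14 (SE), with an adjusted p of 0.0552 in edgeR, and 3 of 14 alternatives called it, the range being 0.00155 to 0.208. Gipc1 itself had a log2 fold change of -0.01 ± 0.16 (SE).

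The 3 sheddases that can cut semaphorins and neuropilins from the membrane were not called in edgeR (median log2 fold change -0.08), nor were the 3 tested neuropilin ligands outside the semaphorins (median -0.15) or the 3 tested other receptors (median -0.06). Each of these 3 lists had 0 genes at an unadjusted p under 0.05. The median of the other receptors hides a spread. Itgb1, the beta 1 integrin, had a log2 fold change of -0.52 ± 0.25 (SE), beside 0.07 for Cd72 and -0.06 for L1cam. Itgb1 was at 347 to 535 CPM in WT and 244 to 412 CPM in Exon2KO, with overlap and an adjusted p of 0.510 in edgeR. Vegfc, a neuropilin ligand of the VEGF family too low to be tested, had 9, 25 and 12 counts in WT 2, WT 6 and WT 20 and 0, 1 and 1 in Exon2KO 2, 6 and 20, and it was called when no count filter was used. RNA levels of the sheddases do not measure the cleavage they carry out. With the replicate block, 4 of the 41 tested pathway genes were called, beside 9.72% of all tested genes: Tgfb1, Limk1, Myo6 and Arhgef12. Tgfb1 had a log2 fold change of -0.20 ± 0.09 (SE) and Limk1, a kinase of the actin-severing protein cofilin, -0.35 ± 0.14 (SE). Their adjusted p were 0.0482 and 0.0159 with the block and 0.419 and 0.308 without it, and ran to 0.862 and 0.726 over 14 alternatives.

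The difference between column numbers was not itself used to choose the genes, so it was tested. It is not fully free of that choice, since genes picked for separating the genotypes may vary less within a genotype. In edgeR's test of the numbers 2, 6 and 20 with genotype in the model, 1 of the 9 genes differed at an adjusted p under 0.05, against 10.4% of all tested genes. This count is near that share, so nothing particular to the 9 is read from it. It was Sema7a, which in both genotypes was highest in the library numbered 6 and lowest in that numbered 20. Relative to number 2, its log2 difference was 0.48 for number 6 and -0.36 for number 20 (adjusted p = 0.0454 in edgeR). The call of Sema7a was lost when any 1 of the 6 libraries was left out, and without Exon2KO 6 Nrp1 was called in its place. Among the relatives, Plxna1 differed between numbers, with log2 differences of 0.49 and 0.40 for numbers 6 and 20 (adjusted p = 0.0367 in edgeR). Of the 41 tested pathway genes 7 differed between numbers, beside the 10.4% of all genes. Among them Cd72, the lymphocyte receptor of Sema4d, had 33.1, 14.8 and 12.1 CPM in WT and 33.1, 15.0 and 14.7 CPM in Exon2KO libraries numbered 2, 6 and 20 (adjusted p = 6.18e-06 in edgeR), with no such split by genotype.

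Markers of other cells and of Tregs moved with some of these differences. In bulk RNA, fewer cells of a type and less RNA per cell cannot be told apart. Of the 8 T cell and Treg markers 3 were called, all lower in Exon2KO, where the share over all tested genes was 1.58%. They were Ctla4 (log2 fold change -0.85), Ikzf2 (-0.66) and Il2ra (-0.52). The sum of all 8 was lower in Exon2KO within each number. Of the other 5, Cd4 was at 632 to 724 CPM in WT and 746 to 819 CPM in Exon2KO (0.22), and Foxp3 (0.19), Cd3d (0.05), Cd3e (0.02) and Cd3g (-0.01) overlapped between the genotypes. The 8 B cell markers summed to 33.7 to 34.5 CPM in WT and 26.5 to 29.4 CPM in Exon2KO, with no gene called without the block. Cd79b gave 20.5 to 22.9 and 14.0 to 16.9 CPM of this, and it was called with the replicate block (log2 fold change -0.51, adjusted p = 0.00501 in edgeR), while the other 7 summed to 10.7 to 14.0 and 11.2 to 14.8 CPM. The part of these markers in the levels of the 9 genes was not tested.

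The 10 myeloid and dendritic cell markers, from cells that can also carry Nrp1 and Sema4a, summed to 22.2 to 41.5 CPM in WT and 17.3 to 33.1 CPM in Exon2KO. The ranges overlapped, and the Exon2KO sum was the lower within each number. Stromal and endothelial markers summed to 165 to 192 CPM in WT and 189 to 225 CPM in Exon2KO, almost all of it Pecam1, which T cells also express; this sum was the higher in Exon2KO within each number. Without Pecam1 the other 7 reached 2.04 to 4.46 and 0.722 to 2.62 CPM, with Col3a1 at 0 in all libraries. CD8 T and NK cell markers (6 genes) summed to 25.5 to 28.7 and 25.9 to 30.1 CPM, and erythroid markers (4 genes) to 4.27 to 13.3 and 3.26 to 9.59 CPM, the latter lower in Exon2KO within each number. None of these genes was called in edgeR without the block. With it, Lyz2 was called lower (log2 fold change -0.40, adjusted p = 0.0413) and Pecam1 higher (0.23, adjusted p = 0.0164) in Exon2KO, each in the same direction within all 3 numbers.

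Genes with a pattern like those of Nrp1 and Sema4a were ranked by Pearson's r of log2 CPM over the 6 libraries, among 8420 protein-coding genes of at least 10 CPM. The 6 points share 2 genotypes and 3 numbers, so a high r mostly repeats the separation of the genotypes. Closest to Nrp1 were Pqlc3 (r = 0.997), the cytokine receptor gene Il9r (0.995), the bicarbonate transporter gene Slc4a7 (0.994), Osbpl3 (0.993) and Tnfrsf10b (0.989), and 199 genes had r above 0.9. Closest to Sema4a were the actin cross-linker gene Actn1 (0.998), Dgkd (0.996), Ndrg3 (0.993), Ranbp10 (0.993) and the ubiquitin ligase gene Smurf2 (0.993), with 217 genes above 0.9. Il9r was at a mean of 34.5 CPM in WT and 13.4 CPM in Exon2KO, and Actn1 at 186 and 308 CPM.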

How the data were processed

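The kind of RNA selection and the strand setting are not given in the sources used here. The submitters' processing notes name HISAT2 2.0.5, StringTie 1.3.3b, featureCounts 1.5.0-p3, DESeq2 1.16.1 and the build mm10, with no role or order. The authors deposited 1 table with, per the file headers, whole-number counts per library, and for Exon2KO against WT a scaled count signal per genotype, a log2 ratio and its p-value, raw and adjusted. Per the file headers, columns carry the genotype and a number (2, 6 or 20), so each was assigned to a group but not to a titled sample. The table holds 6 further per-library columns (FPKM), which were not used because columns assigned to a group only were limited to 1 measure, so levels per length were computed from the counts instead of the FPKM that had been planned.

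The 9 genes, the gene lists and the tests were chosen with earlier results of these data known. Counts as deposited were tested in edgeR 4.0.16 (R 4.3.3) with filterByExpr, TMM scaling and a robust quasi-likelihood fit over all 6 libraries, and p-values (two-sided) were adjusted by Benjamini-Hochberg over the 14919 tested genes. An SE of a log2 change is the change divided by the square root of the F statistic. Named genes are the 9, every tested relative, called genes of the lists (at most 5 a list), overlapping genes and the 5 genes most like Nrp1 and Sema4a. Block-called list genes, Gipc1, Vegfc, Cd72, Itgb1 and L1cam were added after their values were seen. Alternatives were no filter, 10 counts in every library, RLE and upper-quartile scaling, DESeq2 1.42.0 and limma-voom (limma 3.58.1). A replicate block on the column number and each library left out were further alternatives. Both libraries numbered 20 left out, and total counts in place of scaled sizes for levels per length, were added after seeing the data. For the test between column numbers, each library left out was also added after seeing the data. Same-numbered libraries deviated together (r = 0.271, 0.369 and 0.494 across genes for 2, 6 and 20), and those of unlike number had r of -0.372 to 0.0538. Deviations from a mean of 3 libraries push unlike pairs below 0, so this does not establish a pairing. The numbers were used as a block on this ground, though no label gives a pairing or says what they stand for. Replicate pairs differed by more than sampling noise (chi-square per degree of freedom 8.87 to 26.4). The scripts were tested on simulated data. Of the 5 pathway lists, 1 (7 tested genes) enters the joint counts and median and is otherwise not reported here, so the medians of single lists do not cover it. Gene positions match GENCODE M21 (GRCm38), and promoter windows are from RefSeq (GRCm38.p6), where all 9 genes matched.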

Additional observations from a re-analysis of the deposited data

How the results depend on the processing

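Over all tested genes, edgeR called 348 with the settings above, 617 without a count filter, 667 with DESeq2, 1450 with the replicate block on the column number, and 86 to 314 with 1 library left out (86 without Exon2KO 2, 131 without WT 2, 156 without WT 6 and 204 without WT 20). Of the 9 genes, 3 were called (beside 2.33% of all tested genes), 6 with the block (beside 9.72%) and 2 to 4 in the other alternatives. Sema4a and Plxnd1 were called in all 14. Because the 9 were selected on this contrast in these same counts, their calls only describe the processing and give no support for a difference. Among the other relatives, 0 became 1 with the block (Plxna3). Among the listed pathway genes, 1 became 3 without a filter (with Myo6 and Vegfc), 2 with DESeq2, 4 with the block and 0 to 1 with a library left out. For the difference between column numbers, the 1 gene called became 0 under upper-quartile scaling and 0 to 1 with a library left out. The log2 fold change of Sema4d, -0.03, was 0.00064 without the libraries numbered 20; the other 8 genes kept their direction in every alternative. Nrp1 ranged from -0.78 to -0.58 with 1 library left out. The order of levels per length was the same on total counts. A block on the titles' replicate numbers could not be fitted, as the columns carry other numbers. The 13 relatives under the count filter were not tested, and the lowest tested ones (Sema3d, Sema4g, Sema6d and Nrp2) had errors of 0.36 to 0.48 on the log2 scale. The cause of these shifts was not tested.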
